A study of Schizosaccharomyces pombe with 16 samples.

Results

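The comparison concerned the total RNA of a pair of fission yeast (Schizosaccharomyces pombe) strains, taken as the input of an RNA immunoprecipitation study of the zinc-finger protein Zfs1. Members were chosen by label: all libraries marked as input, 3 from the Zfs1-TAP strain and 3 from the GFP-TAP strain, 6 of the 16 libraries of the study. The Zfs1-TAP strain had the genotype zfs1-TAP::kanMX6 h-, in which the gene at its own locus carries the TAP affinity tag. The GFP-TAP strain had the genotype leu1Δ::[Pnmt1-gfp-TAP-Tnmt1 ura4+] ura4-D18 h+, in which a GFP-TAP fusion under the thiamine-repressed nmt1 promoter replaces leu1 and zfs1 carries no tag. Both grew exponentially in Edinburgh minimal medium (EMM) at 25°C, with supplements such as leucine added where a strain needed them. The strains thus differed in mating type, in the tag on zfs1, in leu1, in the ura4 allele and in the transgene at the same time. They may also have differed in the supplements given, leucine among them. These factors cannot be told apart here. Nothing in the labels states that each strain was represented by more than 1 clone, and the p-values below measure the spread between 3 experiments.

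Fission yeast haploids are of mating type M (h-) or P (h+). Which type a cell has is set by the genes in the mat1 cassette. M cells make and export M-factor, a prenylated pheromone, and carry the receptor for P-factor, and P cells do the reverse. When nitrogen runs out, the transcription factor Ste11 switches on the pheromone pathway (receptor, G protein, Ras, the Byr2-Byr1-Spk1 MAP kinase cascade) and mei2, which starts meiosis. In nitrogen-rich minimal medium this programme is kept low. Zfs1 binds AU-rich elements in mRNAs and promotes their decay, and leu1 encodes 3-isopropylmalate dehydrogenase of leucine synthesis.

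The sequences that matter for mating type and for the mating genes came from RefSeq (assembly ASM294v3). The M-factor genes mfm1, mfm2 and mfm3 encode the same pheromone, and the 27 bases that code for the mature peptide differ at 3 positions, shown in capitals because mfm2 alone is distinct there. They are given as spliced coding sequence, and mfm1 and mfm3 are identical over this stretch. The sequence beyond it was not compared. The stretches lie at chrI:4917189-4917286 (+) for mfm1, chrI:2913020-2913088 (-) for mfm2 and chrII:700451-700544 (+) for mfm3, introns included.
mfm1: tatacCccCaaggttccttaCatgtgt
mfm2: tatacTccAaaggttccttaTatgtgt
mfm3: tatacCccCaaggttccttaCatgtgt

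The second set shows the TR box, TTCTTTGTT, the sequence that Ste11 is known to bind, in capitals with 10 bases on each side. The mating genes shown were picked for their results below. It was searched on both strands from 500 bases before to 50 bases after the annotated start of each gene. Only matches upstream of the start on the gene's own strand are printed, namely chrII:3983239-3983267 (+) for ste11, chrI:4515145-4515173 (-) and chrI:4515167-4515195 (-) for mei2, chrI:3001550-3001578 (-) for spk1, chrI:1296579-1296607 (-) for ste4 and chrII:2114407-2114435 (+) for mat1-Mc.
ste11: aaagttgaatTTCTTTGTTtgattttcat
mei2, nearer the start: attttaaagtTTCTTTGTTttacaaaccc
mei2, farther: gccgaccgatTTCTTTGTTcctattttaa
spk1: caaagaaactTTCTTTGTTattgtaagtt
ste4: tgagtatgctTTCTTTGTTataaaagtag
mat1-Mc: gtttttgggtTTCTTTGTTctgtaagtag
The TR box stood in this window in 163 of 5108 protein-coding genes (3.19%). It stood in 6 of 11 genes of the M list, in 10 of 17 other mating genes and in 0 of 3 P genes (map2, map3 and map4). The 6 M genes hold 5 distinct genomic sites, since mat1-Mc shares its site with mat1-Mi, and mat3-Mc with mat3-Mi. No TR box of exactly these letters stood in the windows of mfm2, gpa1 or map3. Of the 17 other mating genes, mam4, ste7, rep1 and rgs1 also had upstream matches on their own strand, which are not printed. In the inputs mam4 differed by 0.11, ste7 by -0.12 and rgs1 by -0.67, and rep1 is given below. A TR box thus also stood before genes that were not lower in each experiment, such as mam4 and ste7. The gene rgs1 was lower in each (-0.77, -0.37 and -0.86).

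The deposited values were edgeR-normalized read counts per transcript. Their totals ranged from 8042870 to 72878500 per library, and the number of reads sequenced is not given by them. Ribosomal RNA made up 72.1% of the Zfs1-TAP total and 34.7% of the GFP-TAP total in experiment 1, and at most 4.19% in the other 4 libraries. Ribosomal RNA was therefore left out, each library was set to the same median, and all levels below are these rescaled counts. A transcript entered the test with a mean of at least 1 CPM (the count scaled to the library total without ribosomal RNA) over the 6 libraries, which 5949 passed. Differences are log2(rescaled count + 1), Zfs1-TAP minus GFP-TAP, a scale that understates the change of low transcripts. The test was limma's, blocked by experiment number, with p-values adjusted after Benjamini and Hochberg. A transcript is called here at an adjusted p under 0.05. Differences are relative to the median transcript, which lies at 0.42 on the deposited scale.

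By this test 4 transcripts (0.0672% of those tested) differed. Of these, 3 (0.0504%) were higher in the Zfs1-TAP strain, namely leu1, mat1-Mc and mfm2. The other 1 (0.0168%), SPMTR.01, was lower. They include the deleted marker gene and genes of mating type. At an unadjusted p under 0.05 there were 901 of the 5949. Counts of list members at that threshold, given below, are to be read beside this share. Experiment 1 stood apart: across the 5949 transcripts, its differences correlated with those of experiment 2 at r = 0.21 and with those of experiment 3 at r = 0.10, whereas experiments 2 and 3 correlated at r = 0.67. These points share libraries and include the noise of low counts. Without experiment 1, 506 transcripts (8.59% of 5888) were called higher and 290 (4.93%) lower, among them all 4 that were called with it. Of these 796 calls, only 416 had the same sign in experiment 1. Results from experiments 2 and 3 alone are given beside those from all 3 and do not replace them. With 2 libraries a strain, that fit relies on the spread being shared across transcripts.

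**Figure D1:**
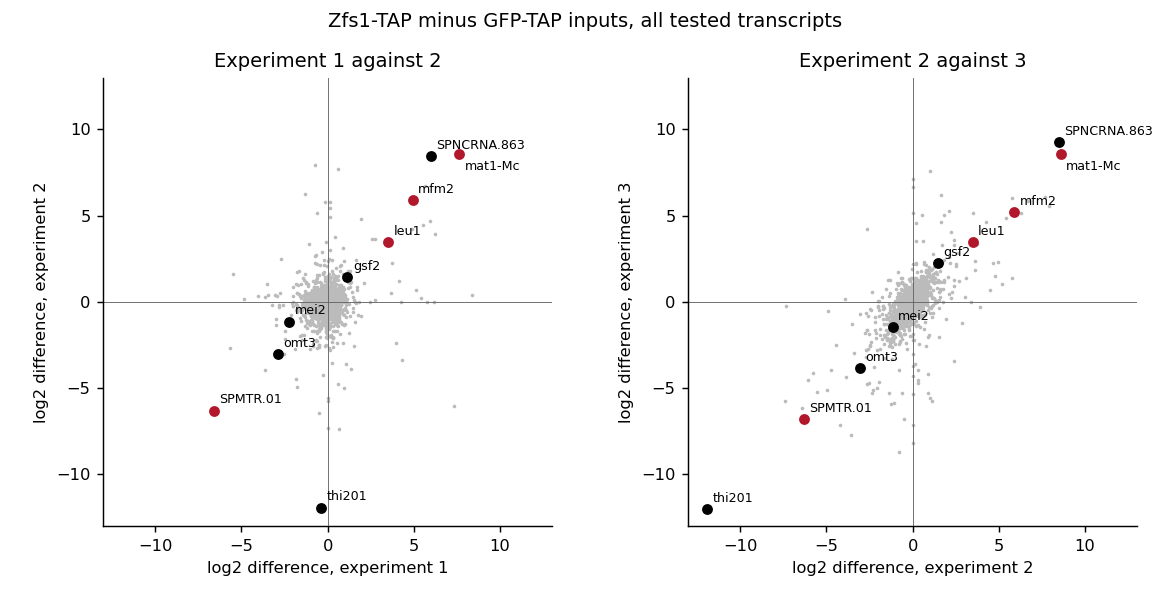
Log2 differences between Zfs1-TAP and GFP-TAP inputs of 5949 transcripts, experiment 1 against 2 (left, r = 0.21) and 2 against 3 (right, r = 0.67). Grey points are transcripts, red points the 4 called over 3 experiments and black points other named transcripts, which were chosen after their values were seen; thi201 differs in experiments 2 and 3 only.

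The gene leu1 (SPBC1A4.02c, chromosome II, 1974390 to 1975674) checked the labels. Its level was 4813, 6476 and 6710 in experiments 1 to 3 of the Zfs1-TAP strain, against 416, 582 and 603 in those of the GFP-TAP strain. The groups were far apart in every experiment, but the GFP-TAP strain was not at 0. The difference was 3.49 ± 0.06 (SE, n = 3 against 3), or 11.3-fold, with an adjusted p of 0.00097 (limma). The annotation places a non-coding RNA of 1183 overlapping bases on the opposite strand of leu1. Whether the remaining reads came from that RNA or from sequence left at the locus was not tested.

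The other genes tied to the genotypes showed no such gap. The ura4 gene, which encodes orotidine monophosphate decarboxylase, was at 1166, 1197 and 1202 in the Zfs1-TAP inputs. In the GFP-TAP strain, where the ura4-D18 allele stands at the native locus and ura4+ is in the transgene, it was at 1141, 1216 and 1303. The difference of -0.04 ± 0.07 was within the spread. The nmt1 gene, whose promoter drives GFP-TAP, was at 96436, 173586 and 124394 against 82761, 143402 and 118601. It was abundant in both strains and did not pass the test (0.19 ± 0.09, adjusted p = 0.368, limma). The annotation covers nmt1 over its whole length with the non-coding SPNCRNA.1234 on the opposite strand. The sum of both differed by 0.14, 0.18 and 0.00. For zfs1 itself, the values were 967, 1621 and 1706 with the tag against 1428, 1768 and 1283 without. The sign of the zfs1 difference changed between experiments (-0.56, -0.13 and 0.41), so that no difference between the tagged and the untagged gene was detectable.

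The nearest protein-coding neighbours were next examined. Beside leu1, apc10 was at 72.5 to 74.1 against 66.2 to 73.5, and top2 at 2479 to 2649 against 2818 to 3165, a difference of -0.20 ± 0.07 (adjusted p = 0.318, limma). Beside zfs1, msp1 differed by -0.16 ± 0.06 and SPBPB7E8.01 by -0.14 ± 0.09. Beside ura4, tam14 differed by 0.70 ± 0.27 and new25 by -0.03 ± 0.37. None of these 6 passed the test.

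**Figure D2:**
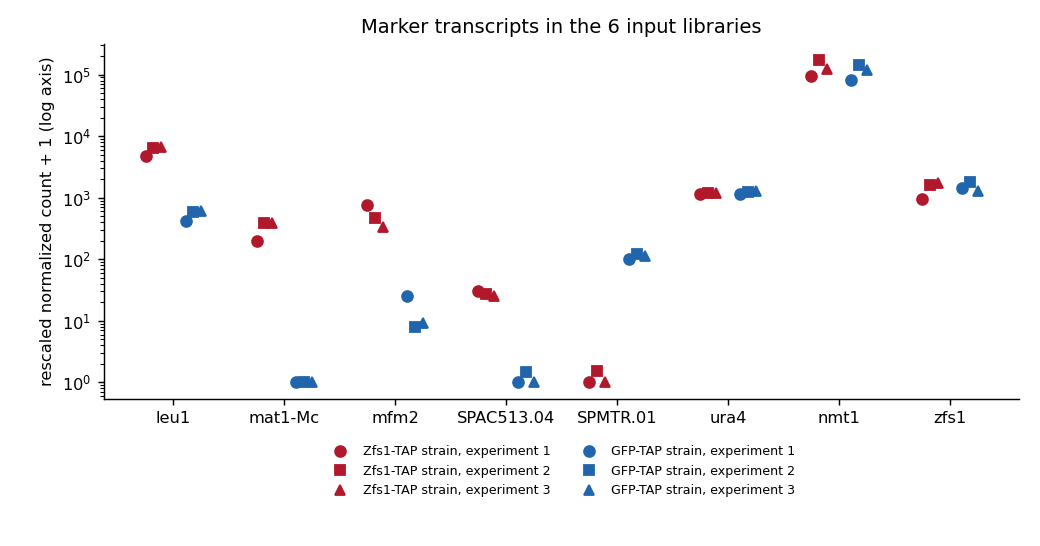
Rescaled normalized count + 1 on a log axis for 8 transcripts in the 6 input libraries, by strain (colour) and experiment (symbol). leu1, mat1-Mc, mfm2 and SPAC513.04 sit higher in the 3 Zfs1-TAP libraries, SPMTR.01 higher in the 3 GFP-TAP libraries, and ura4, nmt1 and zfs1 overlap.

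Mating type was read directly from the cassette genes. The mat1-Mc transcript (SPBC23G7.09, chromosome II, 2114482 to 2115027), which encodes an HMG-box regulator of M cells, was at 196, 385 and 387 in the 3 Zfs1-TAP inputs. It was listed at 0 in all GFP-TAP inputs, so no fold is given. It was the only transcript of at least 10 in all 3 inputs of one strain and at 0 in all 3 of the other. The test gave an adjusted p of 0.0219 (limma) for a difference of 8.27 ± 0.35, whose size depends on the 1 added before the log. Its silent copy mat3-Mc has an identical coding sequence, so reads within that sequence cannot be told apart between the 2 copies. With mat3-Mc added, the levels were 232, 385 and 387 against 0 in all 3.

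The transcript with the opposite pattern was SPMTR.01, an ID that the reference annotation used here does not describe. Its values for the h+ strain were 98.6, 121 and 111, and those for the h- strain were 0.03, 0.55 and 0. The groups did not overlap. The difference was -6.57 ± 0.35 (adjusted p = 0.0343, limma), with -6.60, -6.29 and -6.81 in the 3 experiments. The study also holds an RNA-Seq table, normalized separately, of 2 wild-type and 2 zfs1 deletion libraries. In it SPMTR.01 was deposited at 210 and 207 for the wild type, 115 and 135 for the libraries labelled as the deletion, and mat1-Mc at 4.74 or less in all 4. In the paper's strain list, the wild type and the zfs1 deletion without other changes are homothallic (h90), unlike the h- and h+ inputs. The paper does not tie a listed strain to these libraries, so their mating type is not known here.

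Of the M-factor genes, only mfm2 passed the filter. It was at 768, 470 and 336 in the Zfs1-TAP inputs against 24.1, 6.96 and 8.18 in the GFP-TAP inputs. The groups did not overlap, and the difference of 5.34 ± 0.24 was 40.5-fold (adjusted p = 0.0219, limma). The deposited values of mfm1 reached only 24.9 in the Zfs1-TAP inputs and 4.56 in the GFP-TAP inputs, and those of mfm3 did not exceed 3.81 in any input, so both failed it. Fewer M cells in a culture and less RNA per cell cannot be told apart here. Summed over the 3 genes, the family was at 779, 488 and 345 against 30.8, 9.77 and 14.2.

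The predicted gene next to mfm2, SPAC513.04, showed the same pattern at a low level. It lies on the other strand (chromosome I, 2913403 to 2913705, against 2912762 to 2913250 for mfm2). It was at 29.3, 26.7 and 24.2 in the Zfs1-TAP inputs and at 0, 0.47 and 0 in the GFP-TAP inputs. Its adjusted p was 0.186 with all experiments and 0.0373 without experiment 1 (limma). The neighbour on the other side, SPAC513.02, was at 49.6 to 71.9 against 61.5 to 73.4, and overlapped.

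The remaining M genes did not separate the strains. The list held 11 transcripts of the table, of which 6 passed the filter and 2 were called. The M-factor transporter gene mam1 was at 1349, 782 and 749 against 1043, 718 and 740 (0.17 ± 0.10). The P-factor receptor gene mam2 was at 302, 425 and 437 against 305, 374 and 416 (0.08 ± 0.08). The difference of sxa2, whose product degrades P-factor, was -0.12 ± 0.13. The adhesin gene mam3 changed sign between experiments (-1.31, 0.48 and 1.52). Transcripts of the M receptor and transporter were thus measured in the h+ strain too, at values that overlapped those of the h- strain.

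Among the 3 P genes measured by name, map3, which encodes the receptor for M-factor, had lower values in the h- strain. It was at 146, 105 and 141 in the Zfs1-TAP inputs against 335, 242 and 285 in the GFP-TAP inputs. The groups did not overlap, and the difference was nearly the same in each experiment (-1.19, -1.19 and -1.01). It did not pass the test over all experiments (adjusted p = 0.125) and passed without experiment 1 (-1.10, adjusted p = 0.0321, limma). The annotation overlaps 99.8% of map3 with his6 on the opposite strand. The sum of both was at 977 to 1051 against 1029 to 1163. Most of this sum was his6, so it says little on map3 itself. The P-factor gene map2 differed by -0.25 ± 0.15, and the adhesin gene map4 by 0.40 ± 0.33 with a sign that changed between experiments.

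The mating genes outside the M and P lists were examined from the transcription factor down. Not all of them serve both mating types, since map1 acts in P cells. No member of this list of 17 was called over the 3 experiments (limma). An unadjusted p under 0.05 was found for 9, beside 901 of all 5949 transcripts. Of the 17, 5 were at least 1.5-fold lower in the Zfs1-TAP strain in each experiment, ste11, mei2, spk1, ste4 and map1, beside 0.824% of all tested transcripts, and 1, ste6, was at least 1.5-fold higher, beside 0.622%. Without experiment 1, 7 were called lower, beside 4.93% of all transcripts, and 2 higher (sxa1 and pac2), beside 8.59%, the latter near the share of all transcripts. The median difference of the list was -0.28, against 0.00 over all transcripts.

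The ste11 transcript was at 250, 507 and 340 in the Zfs1-TAP inputs against 461, 911 and 716 in the other strain. It had lower values in each experiment, by nearly the same amount (-0.88, -0.84 and -1.07), although 507 in experiment 2 exceeded 461 in experiment 1, so the groups overlapped when experiments were ignored. The adjusted p was 0.125 with all experiments and 0.0321 without experiment 1 (limma). Of its known targets, mei2 was at 192, 502 and 411 against 896, 1108 and 1136. The mei2 difference was -1.61 ± 0.23 (adjusted p = 0.283) and -1.30 without experiment 1 (adjusted p = 0.0321, limma).

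In the MAP kinase branch, the MAP kinase gene spk1 was at 96.2, 68.2 and 53.1 in the Zfs1-TAP inputs against 218, 195 and 228. Its groups did not overlap (-1.58 ± 0.21; without experiment 1 -1.78, adjusted p = 0.0325, limma). The gene hem4 covers 77.3% of spk1 on the opposite strand, and the sum of both, most of it hem4, differed by -0.21, -0.43 and -0.70. The gene ste4, whose product binds Byr2, was at 165, 190 and 172 against 318, 304 and 341. The ste4 values were close within each strain and apart between them (-0.87 ± 0.11; without experiment 1 -0.83, adjusted p = 0.0369). The MAP kinase kinase kinase gene byr2 did not differ beyond its spread (0.19 ± 0.13). The kinase gene byr1 was lower in experiments 2 and 3 (-0.87 and -1.60) and not in experiment 1 (-0.06), and it is covered over its whole length by the non-coding SPNCRNA.674 on the other strand. Their sum differed by -0.00, -0.72 and -1.32.

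Other members followed in part. The MADS-box factor gene map1, which acts in P cells, was at 53, 59.8 and 43.1 against 145.3, 101.3 and 124.8 (-1.23 ± 0.21; without experiment 1 adjusted p = 0.058, limma). The G-protein alpha subunit gene gpa1 was at 339, 385 and 342 against 592, 511 and 561 (-0.64 ± 0.11; without experiment 1 adjusted p = 0.047). Its groups did not overlap, as was the case for 6.35% of all transcripts in this direction. The gene rgs1, a regulator of G-protein signalling, differed by -0.67 ± 0.13. The gene rst2, whose product activates ste11 transcription, differed by -0.14 ± 0.13, and rep1, which acts in premeiotic DNA synthesis, by -0.06 ± 0.17.

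The gene ste6, which encodes an exchange factor of Ras, was at 45.9, 21 and 81.3 against 0, 0 and 50.8, and the gene is covered over its whole length by SPNCRNA.1227 on the opposite strand. Summed with that RNA, which made up most of the sum, the locus was at 287, 238 and 262 against 253, 270 and 284. The groups of the sum overlapped.

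**Figure D3:**
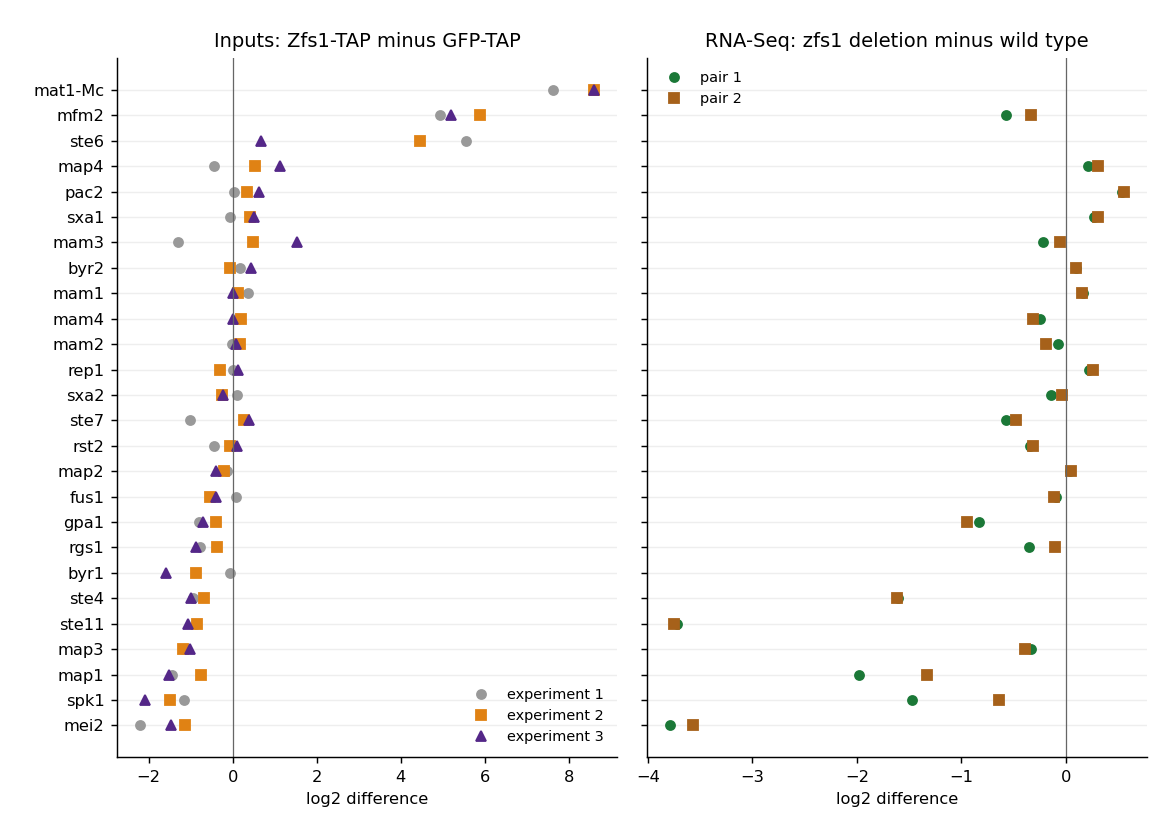
Log2 differences of 26 mating genes, ordered by their mean. Left, inputs of the Zfs1-TAP minus the GFP-TAP strain, 1 symbol per experiment; right, RNA-Seq of the zfs1 deletion minus the wild type, 1 symbol per pair, where mat1-Mc, ste6 and byr1, with no tested value, are blank. mei2, spk1, map1, map3, ste11, ste4, rgs1 and gpa1 lie left of 0 in every pair of both.

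These genes were also read in the RNA-Seq table, which has libraries of its own. In that table zfs1 itself was at 10468 and 10774 in the wild type against 5929 and 5825 in the libraries labelled as the deletion. It was lower but not at 0. The value is for the whole annotated transcript (chromosome II, 3482848 to 3487446), untranslated parts included. It therefore cannot show whether the coding part was removed. The source of these reads was not tested, and the libraries are called the labelled deletion throughout. They had less ste11 (3274 and 3085 against 247 and 228), a difference of -3.74 ± 0.05. They also had less mei2 (2046 and 1859 against 147 and 156) and less ste4 (603 and 545 against 197 and 177). For gpa1 the difference was -0.89 ± 0.06, for map1 -1.66 ± 0.17 and for spk1 -1.06 ± 0.20, and all 6 passed the limma test with adjusted p-values from 1.93e-09 to 0.00336. They were named because they were lower in the inputs. Of the 17 genes of the list, 15 were tested in RNA-Seq, and at 1.5-fold these 6 were called lower and 0 higher, beside 3.28% and 3.09% of all 5184 transcripts. Other members were not lower: rep1 differed by 0.24 ± 0.07 in the labelled deletion (adjusted p = 0.0198, limma) against -0.06 in the inputs, and byr2, sxa1 and pac2 differed by 0.10, 0.29 and 0.55 there. Sizes were not compared between the tables by a test.

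The transcript omt3 (SPNCRNA.130, chromosome I, 4516070 to 4517070), a non-coding RNA that lies close to mei2 (4510983 to 4515025), had the same pattern. It was chosen after its values were seen, as were the other transcripts from here on that belong to no list named above. It was at 20.3, 46.6 and 36.1 in the Zfs1-TAP inputs against 159, 388 and 536 in the GFP-TAP inputs. The groups were apart by a wide margin (-2.90, -3.03 and -3.86), with an adjusted p of 0.0937 and, without experiment 1, of 0.0321 (limma). In the RNA-Seq table omt3 was at 518 and 473 in the wild type against 13.2 and 9.94 in the labelled deletion. A gene of meiosis, mug14, was at 13.1, 18.3 and 21.7 against 48.6, 421 and 125 in the inputs and at 192 and 180 against 22.5 and 34.8 in RNA-Seq.

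Over whole lists, 165 of the 170 transcripts that fell in the labelled deletion (called and at least 1.5-fold, 3.28% of 5184) were tested in the inputs. Of these, 10 (beside 0.824% of all transcripts) were at least 1.5-fold lower in each experiment: omt3, mug14, mei2, spk1, map1, ste11, ste4, SPMTR.01 and the non-coding SPNCRNA.1621 and SPNCRNA.974. In the other direction (0.622% of all) there were 2, Tf2-11 and the gene nrg1. Only SPMTR.01 was called over the 3 experiments. The median input difference of these 165 was -0.18. Of the 160 transcripts raised in the labelled deletion (3.09%), 147 were tested and 0 were called by limma. At an unadjusted p under 0.05 there were 27, beside 901 of all 5949 transcripts. Of the 147, 4 were at least 1.5-fold higher in each experiment (beside 0.622% of all) and 1 was lower (beside 0.824%). Their median was 0.06. Without experiment 1, 20 were called higher, beside 8.59% of all transcripts, and 3 lower, beside 4.93%. The study's named Zfs1 targets gave no uniform picture. The target arz1 was at 509, 420 and 381 against 519, 455 and 400 in the inputs, and at 1463 and 1471 against 6940 and 6945 in the wild type and the labelled deletion. The targets ecl3, cbf12 and puc1 differed by 0.60 ± 0.21, 0.38 ± 0.28 and -0.10 ± 0.23 in the inputs.

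Apart from leu1, no gene of leucine synthesis was called. The genes leu2 and leu3, which encode the enzymes before leu1 in the pathway, differed by 0.20 ± 0.10 and 0.16 ± 0.07, and leu3 was at 10938, 10825 and 10873 against 10584, 8844 and 9798. The genes ilv5, ilv6, ilv3 and ilv1 of branched-chain amino acid synthesis differed by 0.27 ± 0.08, 0.20 ± 0.08, 0.22 ± 0.07 and -0.17 ± 0.06, and the transaminase gene eca39 by -0.05 ± 0.07. None of these 7 was called. Without experiment 1, ilv5 (adjusted p = 0.0367) and ilv6 (adjusted p = 0.0446, limma) were called higher. Of 43 amino acid synthesis genes, 0 were called over 3 experiments by limma (4 at an unadjusted p under 0.05, beside 901 of all 5949). Without experiment 1, 3 were called higher and 1 lower, which is no larger a share than that of all transcripts (8.59% and 4.93%). Their median was 0.08. Amino acid permease genes (6) had a median of -0.16 and pyrimidine genes (8) of 0.05.

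Cell-surface flocculins, which bind yeast cells to each other, differed in experiments 2 and 3. The adhesion list had 9 tested members, of which 0 were called over 3 experiments by limma (3 at an unadjusted p under 0.05) and 6 were called higher without experiment 1 (beside 8.59% of all transcripts), gsf2, pfl3, pfl8, pfl2, pfl5 and the regulator gene cbf12. The gsf2 gene, which encodes a flocculin for galactose-inhibited clumping, was at 5112, 2504 and 2767 in the Zfs1-TAP inputs against 2312, 918 and 578. Its groups did not overlap, as was the case for 6.59% of all transcripts, with differences of 1.14, 1.45 and 2.26 (adjusted p = 0.283, without experiment 1 0.0327, limma). For pfl3 the values were 8168, 4555 and 6980 against 4345, 2599 and 2057. The abundant pfl2 went the other way in experiment 1, with 7469, 44892 and 36978 against 12026, 27016 and 17175. In the RNA-Seq table the list had no single direction: of 11 tested at 1.5-fold, 5 were called higher (cbf12, gsf2, pfl6, pfl8 and pfl9) and 2 lower (pfl5 and pfl7) in the labelled deletion. For gsf2 it gave 8127 and 8746 for the wild type against 12278 and 14212, for pfl5 3088 and 3153 against 2055 and 2020, and for pfl3 a difference of 0.09.

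**Figure D4:**
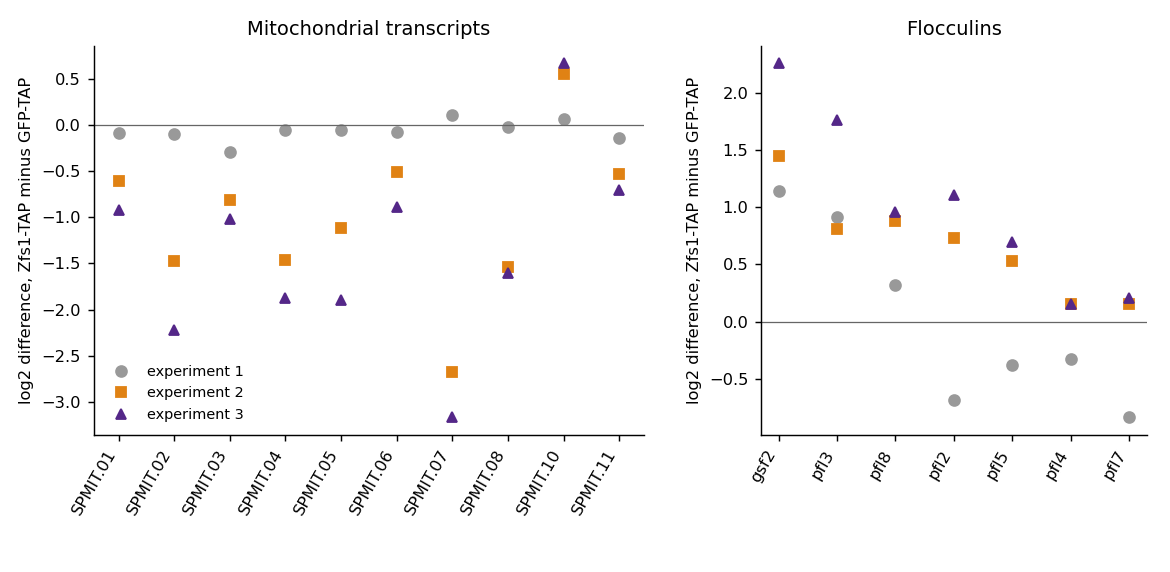
Log2 differences (Zfs1-TAP minus GFP-TAP inputs) per experiment for 10 mitochondrial transcripts (left) and 7 flocculin genes (right). 9 of the 10 mitochondrial transcripts lie below 0 in experiments 2 and 3 and near 0 in experiment 1, and gsf2 and pfl3 lie above 0 in all 3.

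Mitochondrial transcripts, which the files give by ID, had lower values in the tagged strain in experiments 2 and 3. Of the 10 tested, 9 were called lower and 1 higher without experiment 1 (beside 4.93% and 8.59% of all transcripts), and 0 over 3 experiments by limma, where all 10 had an unadjusted p under 0.05. The median was -0.97 and -1.31 in experiments 2 and 3, and -0.07 in experiment 1. SPMIT.07 was at 10815, 246 and 280 in the Zfs1-TAP inputs against 10056, 1576 and 2513 in the GFP-TAP inputs. Both strains held more of it in experiment 1 than in the others, which is the experiment with the high share of ribosomal RNA, and the part of RNA preparation in this was not tested. SPMIT.10 was the exception and was higher (0.56 and 0.67). 

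Of other gene groups, the 131 ribosomal protein genes had a median of 0.18 with 0.14, 0.21 and 0.19 in the 3 experiments. Of these, 93 were higher in all 3 experiments, beside 22.1% of all transcripts, and 2 lower, beside 19.5%. By limma 0 were called over 3 experiments, and 65 had an unadjusted p under 0.05, beside 901 of all 5949. Without experiment 1, 45 were called higher and 3 lower, beside 8.59% and 4.93% of all transcripts. With the libraries set to equal totals, the median of all transcripts was -0.05. Glycolysis genes (15) had a median of 0.04 and went from -0.20 in experiment 1 to 0.13 and 0.12 in the others. The small nucleolar and nuclear RNAs (20) had medians of -0.15, 0.45 and 0.91, and 11 were called higher without experiment 1, beside 8.59% of all transcripts. Histone genes (10) had a median of 0.02, cell cycle genes (11) of 0.18, stress genes (22) of 0.01, thiamine genes (9) of 0.15, iron genes (11) of -0.13, phosphate genes (5) of -0.14 and sugar transport and use genes (14) of -0.25. None of these lists had a called member over 3 experiments (limma), and each had between 1 and 8 members at an unadjusted p under 0.05. The nitrogen starvation list (12), which shares ste11 and mei2 with the mating genes, had a median of -0.38. Of its members, 8 were lower in each experiment, beside 19.5% of all transcripts, and 0 were called over 3 experiments (limma). Besides ste11 and mei2, the 8 included the amino acid permease gene isp5 and the protease genes isp6 and psp3 (-0.68 ± 0.21, -0.56 ± 0.15 and -0.33 ± 0.08). These 3 were not called without experiment 1 either (adjusted p = 0.0542, 0.0769 and 0.0546, limma). The oligopeptide transporter gene isp4 changed sign, from -1.12 in experiment 1 to 1.03 and 1.44.

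**Figure D5:**
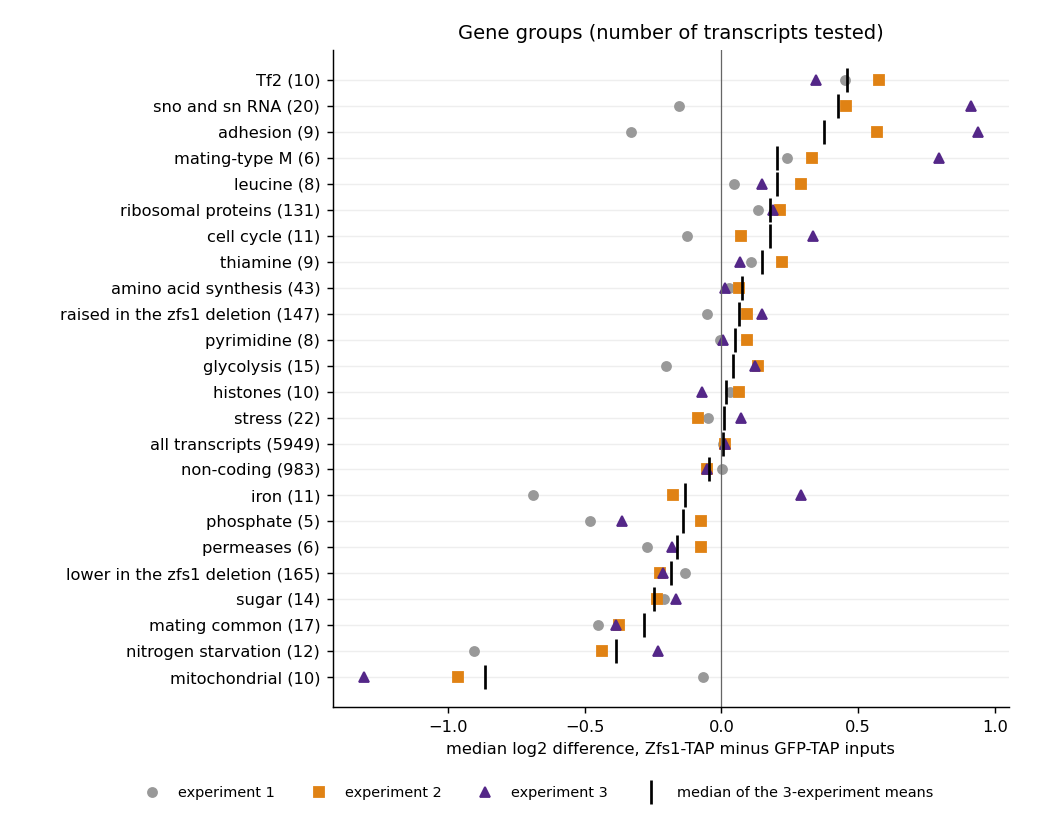
Median log2 difference (Zfs1-TAP minus GFP-TAP inputs) of gene groups, with the number of tested transcripts; symbols are experiments and the black bar is the median of the 3-experiment means. The mitochondrial group lies at -0.86 and all transcripts at 0.00. The Tf2 value (0.46) is that of 3 elements with identical values, and the sum of the family differed by 0.29.

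Over all genes, 37 transcripts (0.622%) were at least 1.5-fold higher and 49 (0.824%) at least 1.5-fold lower in each experiment, of which 21 had a value of 0 in some library. The higher ones comprised 24 protein-coding and 13 non-coding transcripts, the lower ones 21 protein-coding, 27 non-coding and 1 other. The largest of the higher ones after mat1-Mc was SPNCRNA.863, a non-coding RNA that holds a long terminal repeat (chromosome I, 2939138 to 2940765). It was at 1456, 1895 and 1772 in the Zfs1-TAP inputs against 21.8, 4.31 and 1.89 in the GFP-TAP inputs. The groups were further apart than for leu1, but the low values of the GFP-TAP strain varied, and the adjusted p was 0.125 with all experiments and 0.00489 without experiment 1 (limma). Summed with SPNCRNA.862 on the opposite strand, it was still higher by 2.59, 3.33 and 3.04. In the RNA-Seq table it was at 5355 and 5607 in the wild type against 3896 and 1205 in the labelled deletion, where the replicates differed widely.

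Of the retrotransposons of the Tf2 family, 10 were tested, but Tf2-5, Tf2-6 and Tf2-12 had identical values in every library, which leaves 8 distinct ones. Over 3 experiments 0 of these were called by limma (3 at an unadjusted p under 0.05), and without experiment 1 4 of 7 were called higher, beside 8.59% of all transcripts. The element Tf2-11 was at 573, 650 and 731 against 316, 382 and 387, with 0.86, 0.77 and 0.92 in the 3 experiments (adjusted p = 0.125, without experiment 1 0.0321, limma). In the RNA-Seq table it was at 1731 and 1717 in the wild type against 205 and 211 in the labelled deletion. The elements are nearly identical and reads are shared between them, so the sum over 13 was also taken. It was 10625 to 12987 in the Zfs1-TAP inputs and 9317 to 10058 in the GFP-TAP inputs, and was higher in each experiment (0.19, 0.37 and 0.32).

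Among protein-coding genes of unassigned role, SPAC27D7.09c was at 1189, 1710 and 1447 against 596, 647 and 474 (adjusted p = 0.182, without experiment 1 0.0224, limma). In RNA-Seq it was at 4728 and 4946 in the wild type against 16612 and 17201 in the labelled deletion. The gene SPBPB10D8.01 was at 2188, 1351 and 1508 against 964, 783 and 804. Its neighbours SPBPB10D8.04c to SPBPB10D8.07c, which are nearly identical, gave single mean differences from -5.61 to 0.85 over experiments 2 and 3 that their sum did not show (0.24, -0.14 and -0.42). On the lower side, gor1, which encodes a glyoxylate reductase, was at 952, 2750 and 2197 against 1752, 4663 and 3491. The difference was -0.88, -0.76 and -0.67, with an adjusted p of 0.125. The non-coding SPNCRNA.925 was at 1209, 632 and 547 against 2278, 1345 and 1344 and is covered over 81.5% by SPAC8C9.04 on the opposite strand. Their sum differed by -0.56, 0.05 and 0.17, and in experiments 2 and 3 most of it was SPAC8C9.04.

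Several large single differences stood at loci where transcripts overlap on opposite strands. For thi201, the values were 3100, 0 and 0 with the tag against 4018, 3887 and 4142, and the overlapping SPNCRNA.1629 was at 1920, 3730 and 3788 against 1815, 658 and 817. The sum of both was at 5020, 3730 and 3788 against 5832, 4545 and 4960, a difference of -0.22, -0.28 and -0.39. For cdb4, opposite thi4, the single difference was 0.62, 7.68 and 6.07 and that of the sum 0.12, 0.15 and 0.05. This sum was at 9422 to 11005 over the 6 libraries, nearly all of it thi4. It cannot show whether cdb4 itself differed. For uga1, a GABA transaminase gene opposite atg43, the single values were 48.4, 109 and 57.8 against 0, 0.05 and 0. The sum was at 795, 697 and 800 against 866, 714 and 727. Most of it was atg43 (587 to 747 against 714 to 866), so it cannot show whether uga1 itself differed. The deposited uga1 values of the GFP-TAP immunoprecipitates were 136, 386 and 329, so a value near 0 in the input of that strain is an estimate and does not show absence. At least 50% of the length was covered on the opposite strand in 20 of 36 placed transcripts of the higher set and in 22 of 46 of the lower set, against 28.9% of all 5895 placed transcripts. Of the protein-coding genes in those sets, 2 of 24 higher and 7 of 21 lower ones held a TR box in the window given above, against 3.19% of all. Most of them are mating genes already counted above: mat1-Mc and ste6 are the 2 higher, and ste11, mei2, spk1, ste4 and map1 are among the 7 lower. The others of the 7 are gor1 and rnh203.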

How the data were processed

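Input (total RNA) libraries of the RIP-Seq experiment were compared. RNA was depleted of ribosomal RNA and sequenced as strand-specific paired ends. The submitters' processing notes name RSEM 1.1.19, Bowtie 0.12.7 and edgeR, for which no version is given. The deposited values are a signal, edgeR-normalized estimated read counts that the authors made per transcript, which are not whole numbers and were not used in a count test. The assembly name was not given in the sources used here. Values below 1e-06 were taken as 0. IDs were matched to RefSeq (ASM294v3), 6859 of 7018.

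Rows starting SPRRNA were left out, libraries were rescaled to 1 common median, 1 was added and log2 taken. Transcripts averaging 1 CPM or more were fitted with limma 3.58.1 (R 4.3.3; trend and robust empirical Bayes) with the experiment number as a block. Library depth in reads is unknown, so no counting intervals are given. Same-numbered inputs of both strains deviated together (correlations of 0.62, 0.59 and 0.26, each above 0.1), and the labels give them 1 experiment number, so they were treated as pairs. Input 3 of Zfs1-TAP correlated more with input 2 of GFP-TAP (0.42) than with its own number, and input 2 of Zfs1-TAP with input 3 of GFP-TAP at 0.26. The script was tested on simulated data in which noise was equal for all transcripts and no experiment stood apart. That test does not cover a departure like that of experiment 1. Alternatives were: no block, deposited scale, equal totals, median subtraction after log2, pseudocounts of 0.5 and 10, no filter, at least 10 CPM, plain prior, rRNA rows kept, and each experiment left out. The count of transcripts 1.5-fold apart in each experiment was added after seeing the data. The RNA-Seq table was fitted in the same way.

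Members, lists and tests were chosen with earlier results of these data known. Named transcripts were the genes of the genotypes and their neighbours, all members of the M, P and leucine lists, and those listed at 0 in all inputs of one strain. The plan also allowed up to 12 called transcripts with the largest change each way at 10 CPM or more, and up to 4 called members of other lists. With only 3 transcripts called higher and 1 lower, these rules could pick few. Others were chosen after their values were seen.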

Additional observations from a re-analysis of the deposited data

How the results depend on the processing

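The 3 transcripts higher and 1 lower in the Zfs1-TAP inputs changed in number with several settings. Without the replicate block there were 5 higher and 1 lower. On the deposited scale, which shifts the median of all transcripts by 0.42, there were 36 and 6, and 24 members of the fixed lists were called in place of 3. With a mean of at least 10 CPM there were 1 and 0, and 1 list member; mat1-Mc (8.26, adjusted p = 0.271) and mfm2 (5.32, adjusted p = 0.0531, limma) were then not called, and the cause was not tested. With a plain prior there were 5 and 1. After median subtraction on the log scale and with a pseudocount of 0.5 there were 0 lower, since SPMTR.01 had adjusted p-values of 0.0816 and 0.063. Leaving out 1 experiment at a time gave 3 to 506 higher, 0 to 290 lower, 3 to 214 list members and 3 to 10 transcripts listed at 0 in all inputs of one strain, where 1 was found with all. The largest values came without experiment 1. SPMTR.01 was not called without experiment 2 (adjusted p = 0.143). leu1 was called under each of these settings. Of 125 named transcripts, 20 changed sign on the deposited scale and 6 without experiment 1. Low transcripts rest on few estimated reads, and depth in reads is unknown.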
